A study of Drosophila melanogaster with 2 samples.

Results

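Later-intron peaks are places where CG8388 fused to GFP was precipitated from fly chromatin inside a protein-coding gene, but beyond that gene's first intron. A peak was counted when its summit, the base of highest signal, lay over 500 bp from every annotated start of protein-coding transcription (TSS), in no annotated exon, and inside an intron of a protein-coding transcript but in the first intron of none. The list filtered by the authors on the irreproducible discovery rate (IDR), called the thresholded list here, holds 6075 peaks, and 793 met this rule, which is 13.1% (Wilson 95% interval 12.2% to 13.9%). The rule used positions alone and no signal value. The chromatin came from Drosophila melanogaster embryos 0 to 14 h old, pooled male and female, of 1 transgenic line that stably expresses CG8388 with GFP at its C-terminus. DNA sheared by sonication was recovered with an antibody to GFP and sequenced (ChIP-seq), in 2 libraries that the labels number as biological replicates 2 and 3. Both belong to 1 group, so no condition could be compared, and no input or mock library was analysed here. Because whole embryos of all those ages were pooled, a site occupied in many cells and one occupied strongly in few cells cannot be told apart.

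Introns are removed from the transcript, but their DNA can hold control sequences. In Drosophila, long introns of developmental genes are known to carry enhancers, which bind transcription factors and raise transcription from a promoter that may lie many kilobases away, as well as alternative promoters, insulators and whole nested genes. First introns lie next to the promoter, and later introns lie further along the gene. The gene whose later intron held a summit is called its host below, and the label does not say that CG8388 acts on that gene.

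The sequences below show the DNA at the summits of the 8 later-intron peaks of highest signal, followed by the summit in if, which had the highest GC content among the 20 strongest. They reach 50 bases to each side of the summit base and are read 5′ to 3′ on the plus strand of the dm6 assembly from the RefSeq copy of Release 6, with the longest run of A and T in capitals.
hwt, chrX:12547739-12547839: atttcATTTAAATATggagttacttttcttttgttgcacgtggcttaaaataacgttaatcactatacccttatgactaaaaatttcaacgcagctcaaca
CG11050, chr2L:6612662-6612762: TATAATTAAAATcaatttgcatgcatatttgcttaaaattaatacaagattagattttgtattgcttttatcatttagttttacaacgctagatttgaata
wts, chr3R:30796880-30796980: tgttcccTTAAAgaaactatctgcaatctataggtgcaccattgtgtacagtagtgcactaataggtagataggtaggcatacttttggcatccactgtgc
Trl, chr3L:14759469-14759569: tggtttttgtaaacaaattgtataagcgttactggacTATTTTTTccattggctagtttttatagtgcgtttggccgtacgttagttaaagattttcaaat
T48, chr3R:26892932-26893032: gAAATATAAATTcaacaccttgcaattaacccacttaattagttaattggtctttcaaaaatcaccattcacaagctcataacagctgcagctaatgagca
Kdm2, chr3R:9057507-9057607: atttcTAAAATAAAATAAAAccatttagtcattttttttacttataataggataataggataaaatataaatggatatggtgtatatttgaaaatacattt
beat-Ib, the stronger summit, chr2L:15912097-15912197: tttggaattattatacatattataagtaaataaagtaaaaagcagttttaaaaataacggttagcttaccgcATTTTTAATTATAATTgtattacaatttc
beat-Ib, the weaker summit, chr2L:15911224-15911324: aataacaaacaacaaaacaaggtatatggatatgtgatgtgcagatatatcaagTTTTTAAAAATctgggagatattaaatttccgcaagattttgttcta
if, chrX:16774647-16774747: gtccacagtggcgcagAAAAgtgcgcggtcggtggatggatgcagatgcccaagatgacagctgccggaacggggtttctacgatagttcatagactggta

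The 6 strongest later-intron peaks lay in genes of unlike function, and both replicates ranked each of them within their first 140 peaks. Signal is the authors' own value for a peak in units they do not give, so values are compared within a list alone. The peak in hwt (FBgn0264542, chrX:12547435-12548114, intron 4) had a signal of 4277 in the thresholded list, 2696 in replicate 2 and 1593 in replicate 3, and it ranked 8 of all thresholded peaks. Its summit was 807 bp upstream of the nearest annotated start of hwt itself. The peak in CG11050 (FBgn0031836, chr2L:6612449-6612920) had 3380, with 1526 in replicate 2 and 1847 in replicate 3, and its summit lay in the middle of a second intron of 140 bp, the shortest intron among all 793. At wts (FBgn0011739, chr3R:30796607-30797215), which encodes the Warts kinase of the Hippo growth-control pathway, the signal was 2381, with 1298 in replicate 2 and 1095 in replicate 3. These 3 summits differed in base composition, with GC contents of 30.7% in hwt, 20.8% in CG11050 and 41.6% in wts.

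Trl (FBgn0013263, chr3L:14759299-14759741), the gene of the GAGA factor, a chromatin-opening protein that binds GA repeats, had a peak of 2274 in its second intron, with 1169 in replicate 2 and 1092 in replicate 3. T48 (FBgn0004359, chr3R:26892666-26893189), whose product acts in apical constriction at gastrulation, had 1738, with 1051 in replicate 2 and 685 in replicate 3. Kdm2 (FBgn0037659, chr3R:9057285-9057755), a histone demethylase gene, had 1546, with 857 in replicate 2 and 683 in replicate 3. The Kdm2 summit was the poorest in GC of the 20 strongest, at 16.8%, and lay 373 bp from a splice site.

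Both following peaks lay 873 bp apart in the same 31085-bp intron of beat-Ib (FBgn0028645), a member of the Beaten path family of axon guidance receptors. The stronger (chr2L:15911947-15912381) had 1542, with 745 in replicate 2 and 805 in replicate 3, and the other (chr2L:15911070-15911475) had 1520, with 780 in replicate 2 and 722 in replicate 3. Both were over 50000 bp from the nearest start of beat-Ib but 411 and 417 bp from the starts of the noncoding genes lncRNA:CR44868 and lncRNA:CR44867. The next peak, in osa (chr3R:17700376-17700777), a subunit gene of the Brahma chromatin-remodelling complex, had 1462, with 690 in replicate 2 and 762 in replicate 3. It too lay 172 bp from a noncoding start, that of lncRNA:CR46036.

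**Figure D1:**
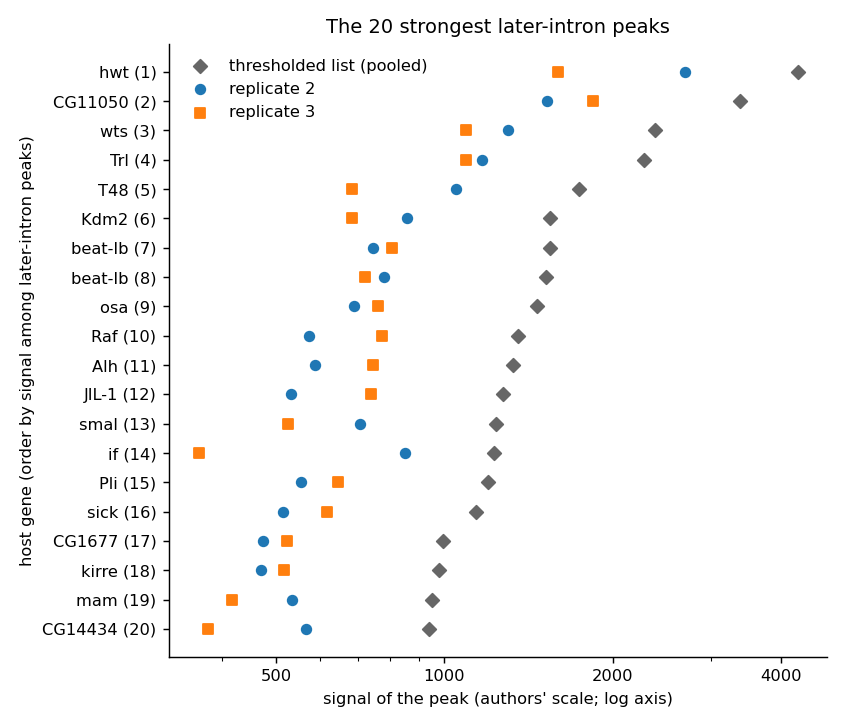
Signal of the 20 strongest later-intron peaks (log axis, authors' scale), 1 row per peak labelled by its host, with diamonds for the thresholded list, circles for replicate 2 and squares for replicate 3. The peak in hwt reached 4277 and the last of the 20, in CG14434, 937, and the ratio between the replicates was largest at if, with 850 in replicate 2 and 364 in replicate 3.

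The peaks ranked 10 to 20 by signal had values between 1355 and 937. They lay in Raf (1355), the kinase below Ras in the MAPK pathway; Alh (1324); JIL-1 (1273), a histone H3 kinase gene; smal (1239), which encodes a discoidin-domain receptor; and if (1228), which encodes the alpha-PS2 integrin. The others lay in Pli (1195), the fly Pellino gene, sick (1138), CG1677 (994), kirre (980), mam (951), the Notch co-activator Mastermind, and CG14434 (937). All 20 were among the leading 6075 peaks of both replicates, and 10 had the higher signal in replicate 2 while 10 had it in replicate 3. Because the 20 were picked by signal in a list that draws on both replicates, high ranks in each are in part built in. Of the 20, 14 lay in intron 2 and 7 lay over 5000 bp from every protein-coding start. For 13 of the 20 the nearest protein-coding start was one of the host's own, and for 7 it belonged to another gene. Summit GC content among them ran between 16.8% and 55.4% (median 26.7%).

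Over all 793 peaks the signal ran between 134.2 and 4277, with a median of 221 and quartiles of 167 and 330. The median was 244 for 1591 first-intron peaks, 219 for 1151 intergenic peaks and 239.7 for all thresholded peaks. The peaks were 100 to 680 bp wide, with a median of 276 bp, and 261 of 793 (32.9%) were exactly 400 bp wide, as were 34.2% of all thresholded peaks. Many peaks thus shared 1 fixed width. At least 1 bp of a peak in both replicate lists was overlapped by 773 of 793 (97.5%), though those lists hold 30000 peaks each. Among the leading 6075 peaks of each replicate the figures were 577 (72.8%) in both, 109 (13.7%) in replicate 2 alone, 99 (12.5%) in replicate 3 alone and 8 in neither. The overlapping peak had a median signal of 113 in replicate 2 and 114 in replicate 3, and a median rank of 3566 in replicate 2 and 3260 in replicate 3.

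Later introns, like intergenic sequence and exons, held a smaller share of the strong than of the weak peaks. Of the 6075 thresholded peaks 13.1% lay there, against 17.3% (16.9% to 17.8%) of the 23925 lower-ranked peaks of the pooled list (odds ratio 0.715, 0.659 to 0.776; two-sided Fisher exact test, p = 2.00e-16). For first introns the shares were 26.2% of thresholded and 25.8% of lower-ranked peaks (odds ratio 1.02, 0.955 to 1.09; Fisher exact test, p = 0.589). For intergenic sequence they were 18.95% of thresholded and 24.99% of lower-ranked peaks (odds ratio 0.702, 0.654 to 0.753; Fisher exact test, p = 7.34e-24), and for exons 3.95% and 7.65% (odds ratio 0.497, 0.433 to 0.570; Fisher exact test, p = 5.81e-27). Promoters, within 500 bp of a start site, went the other way, with 37.0% of thresholded and 22.9% of lower-ranked peaks. Their odds ratio was 1.975 (1.86 to 2.10, two-sided Fisher exact test, p = 3.25e-105). The shares of a list add up to the whole, so a larger promoter share goes with smaller shares elsewhere. Put another way, 16.04% of all listed later-intron peaks passed the threshold, as did 16.14% of listed intergenic, 11.6% of exonic, 20.5% of first-intron and 29.1% of promoter peaks. Within the thresholded list, 105 of the 1215 strongest peaks (8.64%, 7.19% to 10.4%) were in later introns, against 173 of the 1215 weakest (14.2%, 12.4% to 16.3%; odds ratio 0.570, 0.441 to 0.737; two-sided Fisher exact test, p = 1.80e-05). The share was 12.02%, 15.1% and 15.2% in the 3 quintiles between. The strongest quintile had signals of at least 451.8 and the weakest of at most 163. These tests take peaks as independent, which neighbouring peaks are not, and the same holds for every Fisher test below.

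**Figure D2:**
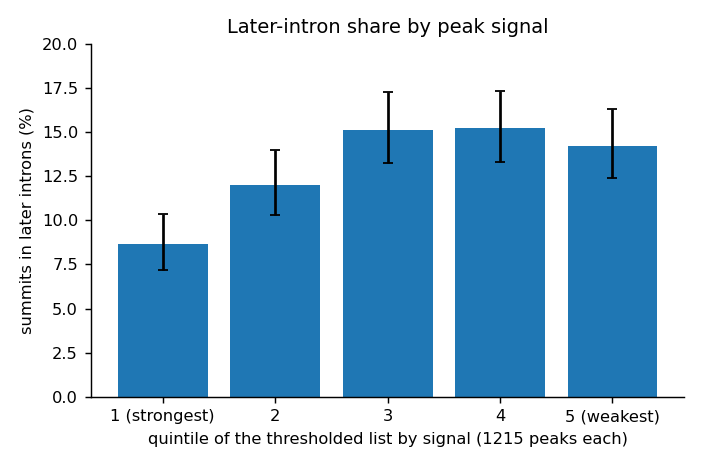
Share of thresholded summits that lay in later introns (%), by quintile of the list from strongest to weakest signal, 1215 peaks each, with Wilson 95% intervals. The strongest quintile had 8.64% and the other 4 between 12.02% and 15.2%.

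Agreement of the replicates on later-intron peaks followed signal, which is in part built in. The thresholded list draws on both replicates, and the leading peaks of each replicate were picked by signal. All 105 peaks of the strongest quintile and all 146 of the next were among the leading 6075 peaks of both replicates. The share was 92.4% of 184 in the middle quintile, 67.0% of 185 in the one after it and 18.5% of 173 in the weakest. Mean summit GC content changed little across the quintiles, between 30.5% in the strongest and 32% in the next to weakest.

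For the sequence available, peaks were sparser in later than in first introns, slightly sparser than in intergenic sequence, and denser than in exons. The rule leaves 29.8 Mb of later-intron sequence, 22.2% of the 6 chromosome arms, and it held 26.6 thresholded summits per Mb. First introns held 71.4 per Mb in 22.3 Mb, and intergenic sequence 30.9 per Mb in 37.3 Mb. Exons held 8.61 per Mb in 27.9 Mb, and promoters 146.7 per Mb in 15.3 Mb. For lower-ranked peaks the densities were 139 per Mb in later introns, 277 in first introns and 160 in intergenic sequence.

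The lower density in later than in first introns was present at each distance from a start site. Later introns held 58.2 summits per Mb at 500 to 1000 bp from the nearest protein-coding TSS, against 114.6 in first introns. Between 1000 and 2000 bp they held 36.1 per Mb, against 93.0 in first introns. The values were 36.2 against 69.6 between 2000 and 5000 bp, 30.0 against 54.6 between 5000 and 20000 bp, and 9.88 against 28.6 beyond 20000 bp. The ratio of later over first introns lay between 0.345 and 0.550 in these 5 distance ranges, and between 0.433 and 0.671 for lower-ranked peaks. These densities are a description of 1 list, with no test.

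**Figure D3:**
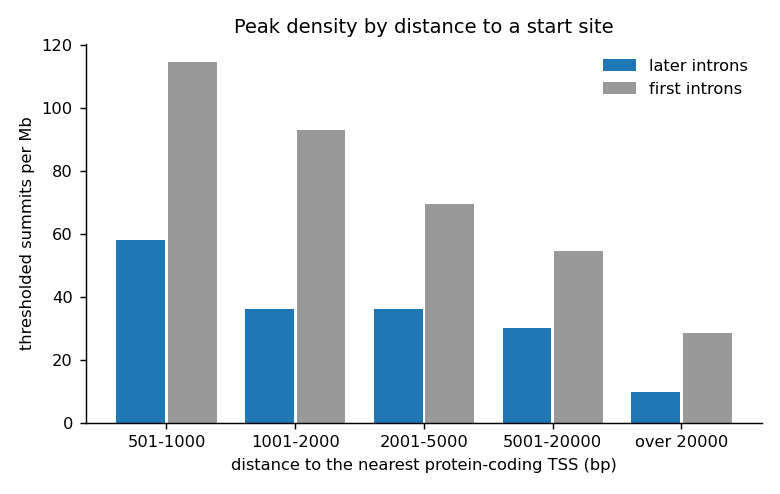
Thresholded summits per Mb of eligible sequence by distance to the nearest protein-coding TSS (bp), with later introns left of first introns in each pair. Later introns were lower in all 5 ranges, at 58.2 against 114.6 nearest to start sites and 9.88 against 28.6 beyond 20000 bp.

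Most later-intron summits lay deep in long introns, which also make up most of the later-intron sequence. Introns of 5000 bp or more held 609 of 793 summits (76.8%). The distance of all eligible bases to a splice site is not given here for comparison. The median intron was 13838 bp long (140 to 139347 bp), and the median summit lay 2769 bp from the nearest splice site (2 to 64739 bp). Splice sites lay within 100 bp of 19 summits (2.40%). Introns of 5000 to 20000 bp held 36.8 summits per Mb in 8.80 Mb, and those of 1000 to 5000 bp held 30.3 in 5.08 Mb. Introns of 20000 bp or more held 23.5 per Mb in 12.1 Mb. Those under 1000 bp held 7.92 in 3.79 Mb, the lowest value, with 30 summits. By order in the gene, second introns held 470 summits at 39.5 per Mb, intron 3 held 129 at 25.7, intron 4 held 86 at 27.1 and introns 5 and beyond held 108 at 11.1. Along the intron, 307 summits lay in the third nearest the 5′ end (28.9 per Mb), 284 in the middle (29.2 per Mb) and 202 nearest the 3′ end (21.5 per Mb). The last intron of the transcript held 65.

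The nearest protein-coding start was at a median distance of 5675 bp (505 to 86646 bp), and 441 summits (55.6%) were over 5000 bp from every such start. That start belonged to a host for 529 of 793 summits (66.7%). Many fly genes have alternative promoters, so a later intron of one transcript can lie beside the start of another. A protein-coding start, of the host or of another gene, lay within 1000 bp of 65 summits. These 65 were not split by whose start it was. The summit lay inside another gene nested in or overlapping the host for 44 (5.55%), and 269 (33.9%) sat in an intron that held a nested gene. The matching shares of eligible sequence are not given here, so neither count can be called high or low. At the edge of the rule, 20 counted summits lay between 500 and 600 bp from a start (median signal 262, mean GC content 31.3%), while 15 summits between 400 and 500 bp that met the rest of the rule were not counted (median signal 233, mean GC content 26.4%).

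Starts of noncoding RNAs, which the rule ignores, lay within 500 bp of 16 of 793 later-intron summits (2.02%). The share of eligible sequence that near to such a start is not given here, so 16 cannot be called many or few. The median signal of these 16 was 408, against 221 for all 793 later-intron peaks. Of the 16, 13 were above the median of the thresholded list, against 349 of all 793 (44.0%), with no test. The 16 included, chosen after their values were seen, summits 72 bp from lncRNA:CR44331 in puc, a phosphatase gene of the JNK pathway (signal 405), 86 bp from lncRNA:CR46090 in pnt (327) and 40 bp from lncRNA:CR43893 in fz2 (169).

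Of 7665 protein-coding genes with eligible later-intron sequence, 409 (5.34%) held at least 1 later-intron summit. Of these hosts 232 held 1 summit, 177 held 2 or more and 24 held 5 or more. Hosting went with the amount of sequence: hosts had a median of 13938 bp of eligible sequence, against 277 bp in the other genes. A summit was present in 0.343% of 5533 genes with under 1000 bp, 6.87% of 1121 genes with 1000 to 5000 bp, 24.3% of 637 genes with 5000 to 20000 bp, 38.5% of 273 genes with 20000 to 50000 bp and 52.5% (53 genes) of those with 50000 bp or more. Per Mb the order was different, with 38.2 summits in genes with 5000 to 20000 bp and 16.4 in those with 50000 bp or more.

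The 10 hosts with most summits held 105 of the 793. The first was kirre on X, which encodes an immunoglobulin-type adhesion protein of muscle founder cells, with 22 summits spread over 311 kb and 6 introns. Their signals ran between 141 and 980 (median 231), and 18 were among the leading peaks of both replicates. CG1677, also on X, held 14 summits within 44.3 kb at a median spacing of 1183 bp and a median signal of 411. The nearest protein-coding start belonged to CG1677 itself for 1 of these 14. On 3L, fz2, a receptor gene for Wingless, held 12 summits with signals between 144 and 220, all below the median of the thresholded list, of which 7 were among the leading peaks of both replicates.

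Raf held 9 summits in a single intron, at 259 per Mb of its eligible sequence, with signals between 149 and 1355 and a median of 484. Sema1a, a semaphorin of axon guidance, held 9 (median signal 213), and SKIP, whose product interacts with the Shal potassium channel, held 9 over 115.2 kb (median 222). The Notch co-activator gene mam held 8 (median 183, 4 among the leading peaks of both replicates), and pnt, which encodes an Ets factor below receptor tyrosine kinases, held 8 (median 199). The teneurin gene Ten-a held 7, and all 7 were among the leading peaks of both replicates. The homeodomain gene hth also held 7, in 6 introns. Density within these 10 hosts ran between 42.6 per Mb in Ten-a and 298 per Mb in CG1677, against 26.6 over all later introns, though they were picked for their number of summits.

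**Figure D4:**
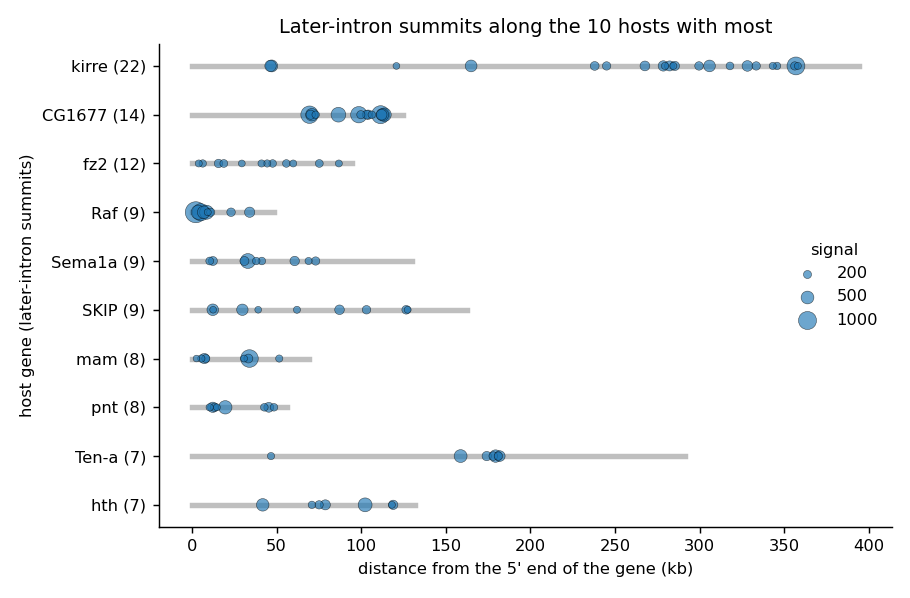
Positions of later-intron summits along the 10 hosts with most of them, as distance from the 5′ end of the gene (kb), with circle area proportional to signal and the number of summits after each name. The 14 summits of CG1677 lie within 44.3 kb, while the 22 of kirre are spread over 311 kb.

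A later-intron summit was present in 22.6% to 50% of the members of 5 gene lists and in 11.8% of the ion channel and synapse list. The share in each list is to be read beside the 5.34% of all 7665 genes and the length of sequence available. The density of each list is to be read beside the 26.6 summits per Mb over all these genes, and no list was tested. Of 39 genes of signalling receptors and ligands, 13 (33.3%) held 34 summits, which is 104 per Mb, or 86.6 per Mb without fz2. Its leading members by summed signal were fz2 with 12 summits (2048), fz with 6 (1430), N, the Notch receptor, with 1 (926), and Delta, a Notch ligand, with 1 (626). Of 31 muscle and cytoskeleton genes, 7 (22.6%) held 15 summits, at 55.7 per Mb, or 44.6 without if. They were led by if with 4 summits (2455), Msp300, which anchors nuclei in muscle, with 2 (1243), mew, the alpha-PS1 integrin, with 2 (632), and the spectraplakin gene shot with 3 (567).

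Of 63 genes of developmental transcription factors, 21 (33.3%) held 49 summits, at 42.4 per Mb, or 36.8 without pnt. The leading ones were hth with 7 summits (2184), pnt with 8 (2066), bab2 with 4 (1432) and psq with 3 (952). Of 83 genes of cell adhesion and axon guidance, 24 (28.9%) held 72 summits at 28.9 per Mb, or 22.8 without kirre. Besides kirre with 22 (6450), these were led by Sema1a with 9 (2365), Ten-a with 7 (2213) and the receptor tyrosine phosphatase gene Ptp10D with 5 (1166). Of 26 genes of RNA-binding proteins, 13 (50%) held 27 summits at 26.0 per Mb, or 22.8 without Rbfox1. In front were Rbfox1 (5 summits, 1436), pum (3, 837), fne (3, 653) and heph (3, 635). The share of RNA-binding genes was the highest of the 6 lists, and so was their median eligible sequence, at 18619 bp.

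Genes of ion channels and synaptic proteins had a median of 12565 bp of eligible sequence, and 6 of 51 (11.8%, 5.50% to 23.4%) held a summit. Of all 637 genes with 5000 to 20000 bp, 24.3% held one, though the list also has members outside that range. The 7 summits of this list came to 6.68 per Mb, the lowest density of the 6 lists. Syn, the synapsin gene, held 2 (summed signal 851), and Rim, an active zone gene (279), the sodium channel homologue NaCP60E (254) and the neuroligin gene Nlg4 (156) held 1 each.

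The X chromosome carried more later-intron peaks than its share of sequence. X held 205 of 793 summits (25.9%) in 16.9% of the later-intron bases, at 40.6 per Mb, against 23.8 per Mb on the autosomes (ratio 1.71). The ratio was 1.05 for first introns, at 74.4 on X and 70.6 on the autosomes, and 0.671 for intergenic peaks, at 21.8 on X and 32.4 on the autosomes. Lower-ranked later-intron peaks had 172 per Mb on X and 133 on the autosomes (ratio 1.29). Of the 10 leading hosts 4 were on X, and without all 10 of these genes the densities were 34.0 on X and 22.1 on the autosomes (ratio 1.54). On the other arms the density was 31.8 on 2L, 27.2 on 3L, 20.8 on 3R and 19.7 on 2R. Chromosome 4 had 1 later-intron summit, in CG31999, in 0.419 Mb. The embryos were of both sexes, and the copy number of X in the pool was not measured, nor was its part in these densities tested.

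Tests set later-intron peaks directly against first-intron and intergenic peaks on 20 features each, 6 of the peak and its place and 14 sequence motifs, by two-sided Fisher exact tests with Benjamini-Hochberg adjustment over all 40. Against first-intron peaks, 3 of 20 features (15% of those tested) passed an adjusted p of 0.05, and all 3 were lower in later introns. Against intergenic peaks, 1 of 20 (5%) passed, and it was higher.

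Later-intron peaks were less often clustered and less often strong than first-intron peaks. Another thresholded summit lay within 5000 bp of 461 of 793 later-intron summits (58.1%), against 1102 of 1591 first-intron summits (69.3%; odds ratio 0.616, 0.516 to 0.735; adjusted p = 2.12e-06, Fisher exact test). Neighbours of every class count here, and first introns lie next to promoters, which held 146.7 summits per Mb. First introns themselves held 71.4 per Mb, against 26.6 in later introns. The part of these positions and densities in the clustered shares was not tested. Signal above the median of the thresholded list was seen in 349 later-intron peaks (44.0%), against 815 first-intron peaks (51.2%; odds ratio 0.748, 0.631 to 0.888; adjusted p = 0.00949, Fisher exact test). Restricted to peaks over 2000 bp from every start, the odds ratio for strong peaks was 0.798 with an adjusted p of 0.225 (Fisher exact test). Among peaks above the median signal, with strong now meaning above the median of those peaks alone, it was 0.775 with an adjusted p of 0.357 (Fisher exact test). Wide peaks made up 43.5% in later and 47.8% in first introns, which did not pass (odds ratio 0.842, 0.709 to 1.00; adjusted p = 0.270, Fisher exact test). The share among the leading peaks of both replicates did not pass either (72.8% against 75.05%; odds ratio 0.888, 0.732 to 1.08; adjusted p = 0.777, Fisher exact test).

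Set against intergenic peaks, the share on X was the feature that passed. It was 25.9% for later-intron peaks and 10.3% for intergenic peaks (odds ratio 3.05, 2.38 to 3.91; adjusted p = 9.53e-18, Fisher exact test). Against the 21.4% of first-intron peaks on X the odds ratio was 1.28 (1.05 to 1.56) and the adjusted p 0.100. Strong peaks made up 44.0% in later introns and 42.6% in intergenic sequence, which did not pass (odds ratio 1.06, 0.884 to 1.27; adjusted p = 0.953), and clustered ones 58.1% and 62.1% (odds ratio 0.847, 0.704 to 1.02; adjusted p = 0.359, Fisher exact test).

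Where a later-intron summit had a thresholded neighbour within 5000 bp, that neighbour was usually of the same kind. For 349 of the 461 the nearest summit was another later-intron summit, for 66 a promoter summit, for 29 a first-intron summit, for 11 an exonic one and for 6 an intergenic one. The median later-intron summit lay 2769 bp from a splice site, so the 5000 bp around it often includes much of the same intron. The part of this in the counts was not tested. Over all 793 the nearest other summit was at a median of 3748 bp (199 to 159300 bp), and 565 (71.2%) shared their host with another later-intron summit. In if, both of the summits 200 bp apart belonged to a single interval, chrX:16774445-16775117, with signals of 1228 and 882.

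Summits in later introns lay in dips of GC content. GC content within 50 bp of the summit averaged 31.6% ± 8.89 (SD, n = 793 peaks; 7.92% to 66.3%), against 43.4% ± 6.77 in windows of the same length 400 bp to each side. It was lower at the summit than beside it in 663 of 793 peaks (83.6%). Windows of that length tiled over all later introns averaged 39.8% ± 9.26 (SD, n = 276941 windows), so the flanks of the peaks were above and the summits below the general level. In 51-bp windows the mean was 31.5% at the summit, 44.9% at 250 bp to the left and 44.8% at 250 bp to the right, and 40.1% and 40.7% at 975 bp. First-intron summits averaged 31.2% ± 8.41 and intergenic summits 31.1% ± 8.80, and the share below the median GC content of the list did not pass the test (46.5% in later and 47.5% in first introns; odds ratio 0.961, 0.810 to 1.14; adjusted p = 0.983, Fisher exact test).

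**Figure D5:**
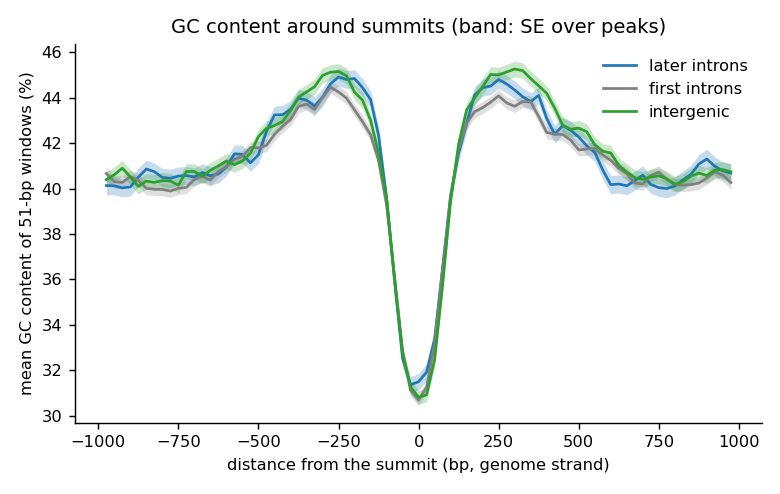
Mean GC content (%) of 51-bp windows by distance from the summit (bp) for later-intron, first-intron and intergenic peaks, with bands of 1 SE over peaks. All 3 curves dip at the summit, to 31.5% for later introns, 30.7% for first introns and 30.8% for intergenic peaks, between shoulders near 44% to 45%.

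Long runs of A and T were more frequent at later-intron summits than in later introns at large. A run of at least 12 such bases lay within 50 bp of 296 summits (37.3%), against 20.7% of tiled later-intron windows, and a run of at least 20 lay near 59 summits (7.44%), against 2.77% of windows. The longest run per summit had a median of 10 bases in later introns, in first introns and in intergenic sequence alike. Its means there were 11.41, 11.43 and 11.48 bases, with no test. The printed sequences show the range, with a longest run of 16 in beat-Ib and 4 in if. The longest, 49 bases, occurred in beat-Ib at a summit of signal 364 with a GC content of 7.92%, and in cv-c at a summit of signal 144. The highest GC content, 66.3%, was at a summit in CG8745 with a signal of 277.

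Consensus motifs were searched on both strands within 50 bp of the summit, by exact letters where N stands for any base, and a match is no more than a match. The GATA factor motif GATAAG was rarer at later-intron than at first-intron summits, in 23 of 793 (2.90%) and 103 of 1591 (6.47%; odds ratio 0.431, 0.272 to 0.684; adjusted p = 0.00261, Fisher exact test). It was in 5.39% of intergenic summits (odds ratio 0.525, 0.322 to 0.854; adjusted p = 0.0731, Fisher exact test), in 4.48% of the later-intron flanks and in 4.07% of tiled windows. The call against first introns did not pass without replicate 2 (odds ratio 0.682, adjusted p = 0.326) or without replicate 3 (odds ratio 0.644, adjusted p = 0.262, Fisher exact test).

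The GAGA factor motif GAGAGAG was rarer at the summits than beside them. It occurred at 2 of 793 summits (0.252%, 0.0692% to 0.915%), named Raf and twi after their hosts and chosen after their values were seen, against 51 of 1586 flanks (3.22%, 2.45% to 4.20%) and 1.38% of tiled windows. Its share was 0.817% at first-intron and 0.695% at intergenic summits, and neither comparison passed (adjusted p = 0.66 and 0.78, Fisher exact test). The insulator motif of Su(Hw), TGCATACTT, occurred at 7 summits (0.883%), against 2 of 1586 flanks (0.126%) and 0.253% of windows. It was at 0.503% of first-intron and 0.782% of intergenic summits, and neither comparison passed by Fisher exact test. The CTCF core, AGNNGGCGC, was at 11 summits (1.39%), against 1.07% of flanks and 0.587% of windows. Its share in first introns was 0.566% (odds ratio 2.47, 1.02 to 5.99; adjusted p = 0.270, Fisher exact test). Of the promoter motifs, TATCGATA, the DNA replication-related element, was at 1 summit (0.126%), against 0.189% of flanks and 0.246% of windows. GGTCACACT was at 1 summit (0.126%), against 0% of flanks and 0.0502% of windows. TATAAA, the TATA box, is counted with the A and T motifs below.

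Motifs made mainly of A and T were more frequent at summits than beside them. TATAAA was at 212 summits (26.7%), against 10.2% of flanks and 13.3% of windows, the Hox core TAATTA at 86 (10.8%), against 5.49% of flanks and 7.44% of windows, and the Mef2 consensus at 65 (8.20%), against 2.59% of flanks and 3.62% of windows. ATTTAAAA was at 45 (5.67%), against 1.64% of flanks and 2.92% of windows. The summits themselves are poorer in GC by the values above, and its part in these shares was not tested. First-intron and intergenic summits had similar shares, and none of these comparisons passed by Fisher exact test. TATAAA was at 26.0% of first-intron and 25.5% of intergenic summits, and TAATTA at 11.6% and 11.2%. The Mef2 consensus was at 8.23% and 8.25%, and ATTTAAAA at 6.85% and 6.69%. Of the E-boxes, which basic helix-loop-helix factors bind, CAGCTG was at 2.27% of summits, against 3.66% of flanks, CACGTG at 0.631%, against 1.58%, and CATATG at 3.91%, against 3.34%. CAGGTAG, bound by the early embryonic activator Zelda, was at 4 summits (0.504%), against 0.567% of flanks. Those 4 lay in Nep1, Raf, rdx and CG44837, named after their values were seen. These A/T motifs can overlap one another, so their counts are not independent.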

How the data were processed

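CG8388-GFP ChIP-seq peak lists of 2 libraries, replicates 2 and 3, were used: 1 list per replicate and 1 pooled list of 30000 peaks each, and 6075 peaks past the authors' IDR threshold, all on dm6, per the file headers and notes. Peaks were called with a control alignment, per the submitters' notes; the sources used here do not give an aligner, a caller or the IDR cutoff. Signal is the authors' deposited value per peak, used only within a list; the deposited −log10 q-values were inspected and not otherwise used. The lists carry no read totals, so depth is unknown, and intervals reflect counting error alone. Thresholded peaks also stand in the pooled list, and its other 23925 peaks served as lower-ranked ones.

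Gene models came from Ensembl release 115, without transposable elements, and sequence from RefSeq Release 6. Coordinates are 1-based. In later introns the eligible sequence is every base that meets the rule. Shares have Wilson 95% intervals and odds ratios Woolf intervals. Fisher exact tests are two-sided, with SciPy 1.17.1, NumPy 2.4.6, pandas 2.3.3 and Python 3.11.15, and the tests were checked on simulated data. Strong, wide and low-GC mean above (for GC below) the median of the thresholded list. Some alternatives changed the peak set: peaks above the median signal, peaks of both replicates, or a replicate left out. There, these medians and the neighbours used for clustering were those of the changed set. Replicate values are those of the overlapping peak of highest signal.

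Members, motifs and 6 gene lists (316 genes) were chosen with earlier results of these data known; the older symbols Dl and Unc-89 were replaced by Delta and Obsc after the values were seen. Named were the 20 peaks of highest signal, the 10 hosts with most summits and up to 4 members of each list by summed signal; sequences were printed for the first 8 peaks and those of extreme GC content among the 20. Alternatives varied the TSS window, exon rule, number of peaks, replicate, overlap and sequence window. Peaks over 2000 bp from a TSS, 1 peak per run and X without leading hosts were added after seeing the data.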

Additional observations from a re-analysis of the deposited data

How the results depend on the processing

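No paired analysis was possible because the samples form 1 group. Across the alternatives run, no odds ratio that passed the test in either setting changed sides of 1. Some that passed in neither did. Strong peaks against intergenic ones (1.06) gave 0.894 above the median signal, 0.9502 with peaks of both replicates and 0.9578 to 0.9584 on leaving out a replicate. In these settings strong was cut at the median of the peaks kept. Wide peaks against intergenic ones (0.978) gave 1.013 at 1000 bp, 1.001 over 2000 bp from start sites and, on leaving out a replicate, 0.772 to 1.34. Peaks of both replicates against intergenic ones (1.015) gave 0.961 at 1000 bp, 0.823 with whole replicate lists and 0.932 over 2000 bp from start sites. Low-GC peaks against first introns (0.961) gave 1.024 with GC within 100 bp and 1.001 over 2000 bp. Of 308 motif odds ratios, 49 crossed 1. The later-intron share was 14.1% with 250 bp around start sites, 11.98% with 1000 bp and 11.5% among thresholded peaks above the median signal. Against first introns, the lower share of strong peaks did not pass at 1000 bp (odds ratio 0.768, adjusted p = 0.0522, Fisher exact test), among peaks above the median signal (0.775, adjusted p = 0.357) or over 2000 bp from start sites (0.798, adjusted p = 0.225). The number of motifs called against first introns, 1, was 0 with 250 bp, peaks above the median signal, low-GC summits, over 2000 bp or without replicate 2. Hosts numbered 236 with peaks above the median signal. The causes were not tested. Fewer peaks were compared in the above-median, low-GC and over-2000-bp settings.

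Leaving out a replicate in turn gave a share of 12.6% to 13.02%, an odds ratio of thresholded over lower-ranked peaks of 0.646 to 0.757, of clustered peaks against first introns of 0.577 to 0.604, and of X against intergenic peaks of 2.71 to 2.99, with 400 to 418 hosts. With 1 peak per run of neighbours, the X odds ratio against intergenic peaks was 2.26 (adjusted p = 6.93e-07, Fisher exact test). GATAAG also did not pass at 250 bp (odds ratio 0.5997) or within 100 bp of summits (0.665), and passed at 1000 bp (0.446) and with peaks of both replicates (0.410). The CTCF core passed within 100 bp (2.81, adjusted p = 0.0259) and without replicate 3 (3.53, adjusted p = 0.0469, Fisher exact test). Peak lists without read totals limit what can be said of weak peaks.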
